A study of Mus musculus with 6 samples.

Results

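The interferon regulatory factors were followed as all genes Irf1 to Irf9 for which the array annotation gave a probe with a single symbol. There were 8 such genes (Irf1, Irf2, Irf3, Irf4, Irf5, Irf7, Irf8 and Irf9), each with 1 probe, among 10698 genes with a probe of 1 symbol. All 8 had a ratio on all 6 arrays and so belonged to the 8331 genes that were tested. The RNA came from RAW 264.7 cells, a mouse macrophage line. Part of the descriptions writes RAW 264.4, which was taken for the same line. Untreated cells cultured for 1 h were compared with cells given LPS, the lipopolysaccharide of Gram-negative outer membranes, at 100 ng/ml together with LPS-binding protein, a serum protein that hands LPS to its receptor complex, at 100 pM for 1 h. Both RNAs were hybridised to the same array. In 3 arrays the treated RNA carried Cy5 and in 3 it carried Cy3, and the labels number each kind as sets 1 to 3. The labels name no difference between the groups other than treatment. As LPS and LPS-binding protein were given together, their effects cannot be told apart. The line is a cultured macrophage line, not primary macrophages.

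Each value is a log2 ratio of treated over untreated RNA, so that 1 is a doubling and 0 is no difference. A ratio carries no level, so the members cannot be ranked by abundance, and the macrophage label could be checked only by whether marker probes gave ratios. Of 10 macrophage markers, 9 had a probe and 7 had ratios on all arrays, against 2 of 8 fibroblast and epithelial markers. Of 9 lymphocyte markers, 8 had a probe and 7 had such ratios. The check therefore does not set macrophages apart from lymphocytes. The 2 arrays of a set number were averaged, which cancels a common dye effect, and errors are SDs over the 3 set averages. Nothing in the labels ties the sets to separate cultures. The p-values therefore reflect only how far these arrays differ from each other, which may be technical. The number of arrays limits the precision. Signs assume ratios of Cy5 over Cy3, the likely reading of labels that call the Cy5 sample the test, and all would turn under the other reading.

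Interferon regulatory factors are transcription factors that share an N-terminal DNA-binding domain and recognise GAAA repeats in the promoters of interferons and interferon-stimulated genes. Irf3, Irf5 and Irf7 are controlled after translation, since phosphorylation by TBK1, IKK epsilon or related kinases sends the proteins to the nucleus. The Irf7 gene is in addition induced by interferon. Irf1 is best known for control at the level of its own transcription, including through an NF-kappaB site in its promoter. In macrophages, LPS engages Irf3 through TLR4 and its adaptors Ticam2 and Ticam1, which leads to the interferon beta gene Ifnb1.

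The proximal promoters of Irf1, Irf2 and Irf8 are shown because they hold most of the motif matches found among the members. Irf1 was also the only member that passed the test for a change. Each is the 250 bases before the first annotated transcript start, 5′ to 3′ on the strand of the gene, from RefSeq on GRCm38.p6. The Irf1 stretch is chr11:53769764-53770013, the Irf2 stretch chr8:46739495-46739744 and the Irf8 stretch chr8:120736108-120736357, all on the plus strand. Capitals mark the motif matches.
Irf1: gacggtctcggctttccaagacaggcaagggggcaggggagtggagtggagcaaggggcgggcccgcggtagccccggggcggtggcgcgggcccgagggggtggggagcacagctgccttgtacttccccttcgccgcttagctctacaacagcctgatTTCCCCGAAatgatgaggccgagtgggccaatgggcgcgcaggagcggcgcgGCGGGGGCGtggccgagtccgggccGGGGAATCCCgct
Irf2: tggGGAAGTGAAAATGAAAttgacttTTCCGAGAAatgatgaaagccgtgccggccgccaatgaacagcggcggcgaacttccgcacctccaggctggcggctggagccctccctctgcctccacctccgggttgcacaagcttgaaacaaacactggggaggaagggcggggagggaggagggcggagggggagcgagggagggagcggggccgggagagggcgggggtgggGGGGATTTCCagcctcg
Irf8: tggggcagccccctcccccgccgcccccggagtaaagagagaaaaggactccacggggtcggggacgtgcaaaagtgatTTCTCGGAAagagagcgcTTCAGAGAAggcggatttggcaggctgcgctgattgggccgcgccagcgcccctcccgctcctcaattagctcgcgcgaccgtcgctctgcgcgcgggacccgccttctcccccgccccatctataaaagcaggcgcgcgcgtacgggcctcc

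The search covered both strands of 250 bases before to 50 after each start and was made for 6 motifs. These were the GAS element of interferon-responsive promoters (TTCNNNGAA), the ISRE (GAAA, any 2 bases, GAAA), the composite element of PU.1 with Irf4 or Irf8 (GGAA, any 2 bases, GAAA), the EGR site (GCGNGGGCG), the AP-1 site (TGANTCA) and the NF-kappaB consensus, named after their matches in these promoters had been looked at. All 8 members were found in the promoter table by gene identifier, with 11 starts. At Irf1, the GAS match TTCCCCGAA begins 90 bases before the start, the EGR match GCGGGGGCG begins 38 before it, and the NF-kappaB match GGGGAATCCC begins 13 before it. The Irf2 promoter holds an NF-kappaB match, GGGGATTTCC, that begins 17 bases before the start. Its GAS, ISRE and PU.1 composite matches lie between 247 and 216 bases before the start, and the last 2 overlap. Irf8 has 2 GAS matches and Irf5 has 2 EGR matches, 1 of them after the start. No match was found at Irf3, Irf4, Irf7 or Irf9 in these windows, nor at the second start of Irf1 or Irf8. Over all 32851 promoters of this length, 8.3% held a GAS match, 3.44% an ISRE, 2.72% the PU.1 composite, 5.55% an EGR site, 7.81% an AP-1 site and 8.46% the NF-kappaB consensus. A match describes the letters only, and binding was not measured here.

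**Figure D1:**
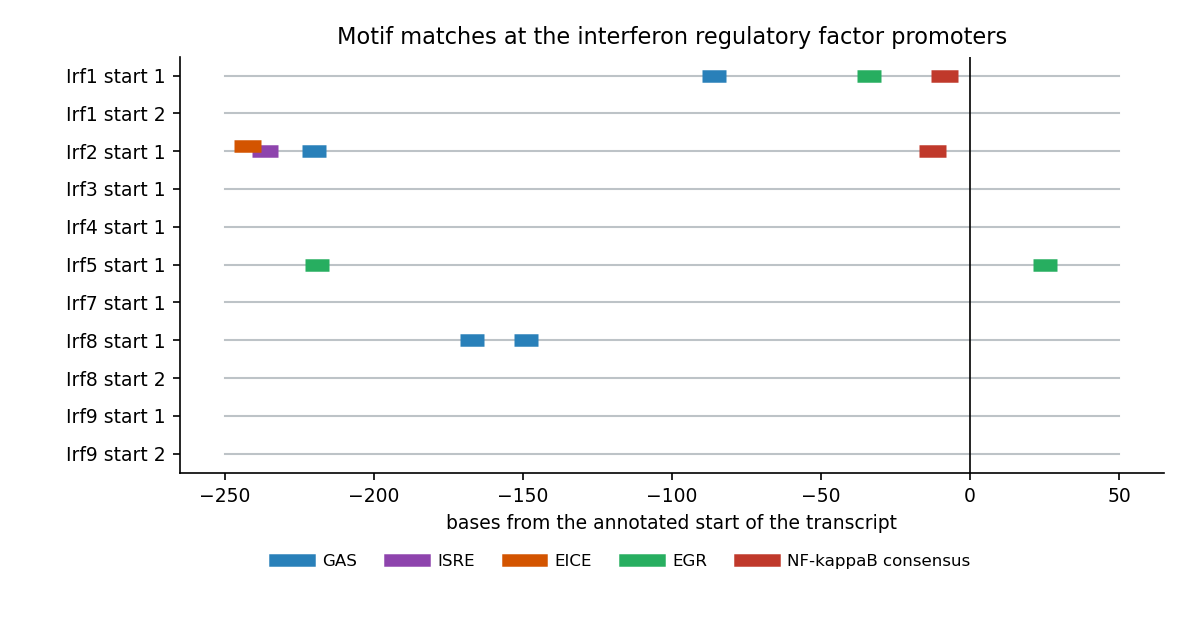
Positions of motif matches (coloured bars, both strands) at the 11 annotated starts of the 8 interferon regulatory factor genes; the horizontal axis is the distance in bases from the start, with 250 bases before and 50 after it, and each grey line is 1 start. The first Irf1 start has GAS, EGR and NF-kappaB matches within 90 bases, and 7 of the 11 starts have no match.

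The comparison asked which members differed in RNA level 1 h after LPS and LPS-binding protein. Irf1, an activator of interferon response, antigen presentation and inflammatory genes, rose 1.35-fold. The other members did not pass the test and stayed between 0.048 (Irf5) and -0.071 (Irf9) on the log2 scale. Thus 1 of 8 members was called upward and 0 downward (limma, Benjamini-Hochberg adjusted p under 0.05 over all genes). Among all 8331 genes 13.2% were called, 6.96% upward and 6.21% downward. The members' share of 12.5% lies near that background, so the count itself sets the family apart in no way. At an unadjusted p under 0.05 the downward count was also 0. The share of all genes at that level was not counted, so this count cannot be read as a trait of the family.

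The Irf1 ratios were 0.49, 0.59 and 0.36 (sets 1, 2 and 3) where Cy5 labelled the treated RNA. Where Cy3 labelled it, they were 0.42, 0.39 and 0.37. All 6 arrays were above 0, and the lowest Irf1 ratio exceeded the highest ratio of any other member on any array, 0.32 for Irf2. The mean was 0.44 ± 0.06 (SD, n = 3 sets), with a 95% confidence interval from 0.33 to 0.54, or 1.26-fold to 1.46-fold (limma, adjusted p = 0.00185). Irf1 was the only member with one sign on all arrays, which held for 19.1% of all genes tested. It ranked 209th from the highest of the 8331 mean ratios. The 580 genes called upward had a median rise of 0.34, and 373 of them rose by less than Irf1. In bulk RNA, more RNA in each cell and more cells that express the gene cannot be told apart.

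**Figure D2:**
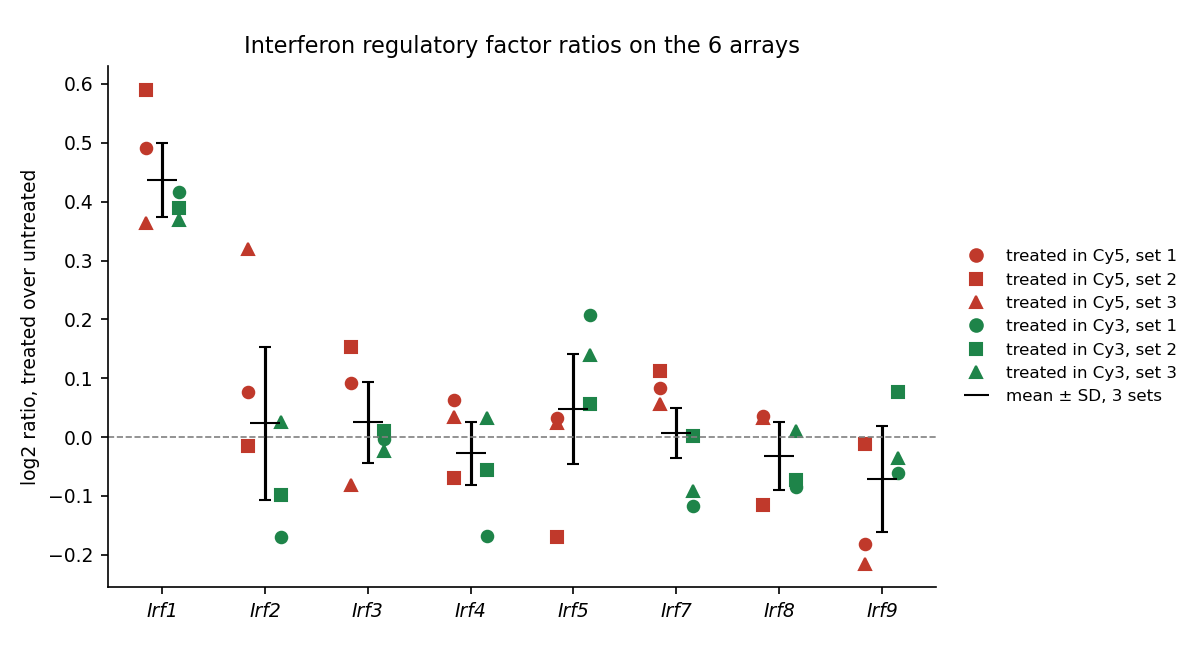
Log2 ratio of treated over untreated RNA (vertical axis) for each member on each of the 6 arrays; red symbols have treated RNA in Cy5, green in Cy3, the symbol shape gives the set, and black bars are the mean ± SD of the 3 set averages. All 6 Irf1 points lie between 0.36 and 0.59, while the points of the other members lie on both sides of 0.

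Irf2, which binds the same elements as Irf1 and can antagonise it, gave 0.076, -0.014 and 0.32 in Cy5 and -0.17, -0.098 and 0.026 in Cy3. Its arrays fell on both sides of 0, 3 of 6 above, and set 3 in Cy5 stood highest. The mean was 0.023 ± 0.13, the widest spread over sets of any member (limma, adjusted p = 0.834). The interval from -0.12 to 0.16 lies wholly below that of Irf1. On each of the 6 arrays the ratio of Irf1 was the higher, by 0.41 on average and by as little as 0.043 on 1 array.

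Irf3, the factor that TBK1 activates downstream of TLR4, read 0.093, 0.15 and -0.081 in Cy5 and -0.0024, 0.010 and -0.023 in Cy3. The signs were mixed, and the Cy3 arrays lay close to 0. The mean was 0.025 ± 0.069 with an interval from -0.085 to 0.14. Irf7, the relative of Irf3 that interferon itself induces and that amplifies later interferon alpha production, read 0.084, 0.11 and 0.056 in Cy5 against -0.12, 0.0011 and -0.092 in Cy3. The Irf7 ratio was therefore above 0 on every Cy5 array and on 1 of the Cy3 arrays. Its mean of 0.0072 ± 0.043 was the closest to 0 in the family, with the smallest spread over sets (interval -0.094 to 0.11).

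Irf5, an inflammatory factor that works with the adaptor Myd88, read 0.032, -0.17 and 0.024 in Cy5 and 0.21, 0.056 and 0.14 in Cy3. Only set 2 in Cy5 lay below 0. The mean was 0.048 ± 0.093 with an interval from -0.073 to 0.17 (limma, adjusted p = 0.590). Irf4, which competes with Irf5 for Myd88 and acts in lymphocytes and alternatively activated macrophages, read 0.062, -0.070 and 0.035 in Cy5 and -0.17, -0.056 and 0.033 in Cy3. With 3 arrays on either side of 0, the mean was -0.028 ± 0.054, with an interval from -0.13 to 0.077. Irf8, the myeloid factor that pairs with PU.1, read 0.035, -0.11 and 0.032 in Cy5 and -0.084, -0.073 and 0.010 in Cy3. Its arrays spanned the narrowest range of all members, 0.15 from lowest to highest, around a mean of -0.033 ± 0.058 (interval -0.14 to 0.074).

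Irf9, the DNA-binding subunit that joins STAT2 in the complex ISGF3, had the lowest mean of the family. It read -0.18, -0.011 and -0.22 in Cy5 and -0.061, 0.077 and -0.036 in Cy3, so that 5 of 6 arrays lay below 0. The mean of -0.071 ± 0.090 did not pass the test (limma, adjusted p = 0.410), and the interval ran from -0.19 to 0.049. Taking the 7 members other than Irf1, the intervals reached at most 1.12-fold upward and 1.14-fold downward. Changes of the size seen for Irf1 lay outside all 7 intervals. Each interval describes the ratios of 1 probe whose signal over background is unknown. A transcript change that the probe does not read is not bounded by it.

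**Figure D3:**
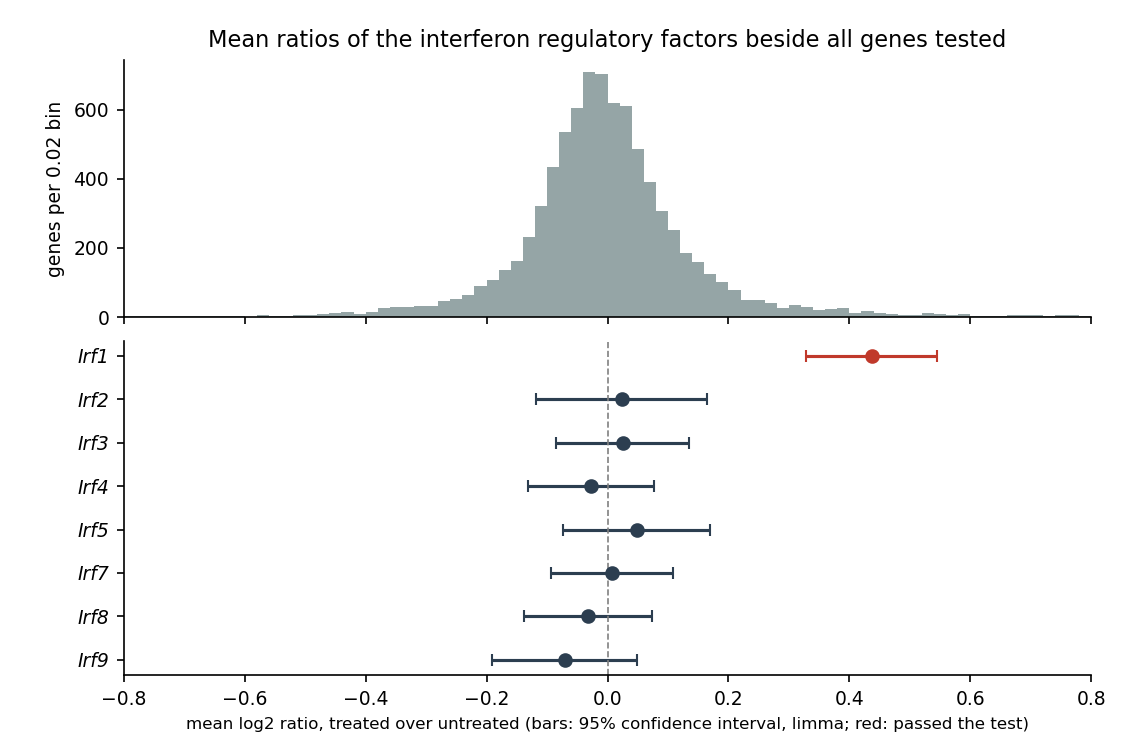
Upper panel, histogram of the mean log2 ratios of the genes tested between -0.8 and 0.8 in bins of 0.02; lower panel, mean log2 ratio of each member with its 95% confidence interval from limma, red where the test was passed. The interval of Irf1, from 0.33 to 0.54, shares no value with those of the other members, which reach 0.17 at most.

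The order of the means was Irf1, Irf5, Irf3, Irf2, Irf7, Irf4, Irf8 and Irf9. Below Irf1, each neighbour in that order lay within the other's interval, so the order of those 7 has no support from the spread. The median of the 8 means was 0.015, against -0.0092 over all genes tested. The members' median SD over the 6 arrays was 0.092, against 0.15 over all genes. Over the 3 set averages it was 0.066 against 0.074, so by that measure the members lay little closer together than other genes.

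Dye orientation was examined for each member, since a dye effect turns its sign between orientations. Irf1 averaged 0.48 in the Cy5 arrays and 0.39 in the Cy3 arrays, and it passed the test in either orientation alone (limma, adjusted p = 0.0144 and 0.0189). Irf2 averaged 0.13 and -0.081, Irf7 averaged 0.084 and -0.070, Irf3 averaged 0.055 and -0.0051, and Irf4 averaged 0.0090 and -0.064. Irf5 ran the other way, at -0.038 and 0.13. Irf8 (-0.016 and -0.049) and Irf9 (-0.14 and -0.0064) kept their sign. The dye effect was tested in limma on the set averages before the signs were turned. After adjustment 0 of 8 members passed, beside 5 of 8331 genes (0.0600%). At an unadjusted p under 0.05, 2 of 8 members did, Irf2 and Irf5 (adjusted p = 0.168 for each). The share of all genes at that unadjusted level was not counted, so neither can be called unusual. The low count after adjustment does not show that dye effects were rare. Of the 200 probes with the largest mean absolute values, 123 had opposite signs in the orientations as deposited, as a treatment effect gives. Between turned arrays, correlations over probes ran from 0.15 to 0.81.

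**Figure D4:**
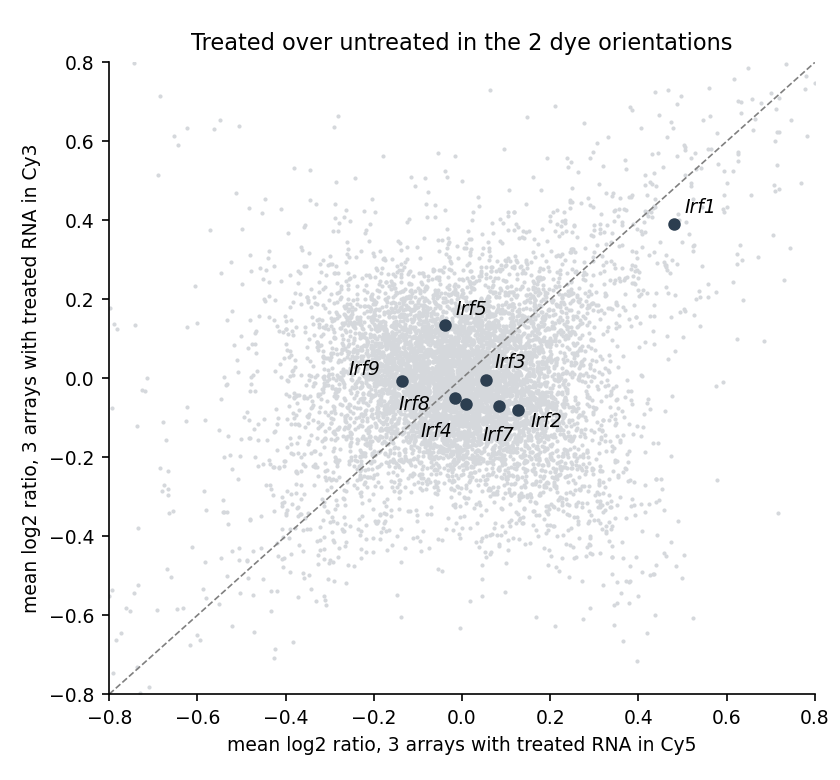
Mean log2 ratio of treated over untreated RNA on the 3 arrays where Cy5 labelled the treated RNA (horizontal) and the 3 where Cy3 did (vertical), with all genes in grey, the members in dark blue and the line of equal values dashed. Irf1 lies near that line at 0.48 and 0.39, and the other members lie around 0.

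The genes around the family were taken from 6 lists of 153 genes in all, of which 111 were tested. Of these, 39 were called (35.1%), 30 upward and 9 downward, beside 13.2% of all genes. The lists were made with earlier results of these arrays known and hold genes famed for LPS responses, so their shares are no independent evidence. Without set 1, 25 list genes passed, 24 of them among the 39. Of the 39, 37 had one sign on all 6 arrays, which a test passed on these same arrays favours by itself.

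Among kinases, adaptors and sensors upstream of the factors, 6 of 16 genes rose and 2 fell, with a list median of 0.074. Peli1, a ubiquitin ligase of the Toll-like receptor pathway, rose by 1.49 ± 0.08. Ikbke, which encodes the inducible Irf3 and Irf7 kinase IKK epsilon, rose by 0.71 ± 0.09, a mean over probes at 1.32 and 0.11 of which the second did not pass. Tbk1, the constitutive kinase of the same pair, rose by 0.23 ± 0.07 (limma, adjusted p = 0.0272). Tbk1 no longer passed without set 1 (0.18) or in either orientation alone. The RNA sensor gene Ifih1 rose by 0.54 ± 0.18, and the LPS receptor gene Tlr4 fell by 0.57 ± 0.05, a mean of 3 probes at -0.88, -0.66 and -0.17, and no call came from the probe at -0.17.

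Of 21 genes for type I interferons, their receptor and ISGF3 signalling, 3 rose and 2 fell, with a median of 0.064. Ifnb1, the target shared by Irf3 and Irf7, rose by 3.00 ± 0.44. None of the 6 interferon alpha genes of the list passed, at means from -0.092 to 0.13. Stat2, the partner of Irf9, fell by 0.48 ± 0.12 and lay below 0 on 6 of 6 arrays, while Irf9 itself did not pass. The receptor subunit gene Ifnar2 fell by 0.25 ± 0.02 and the phosphatase gene Ptpn2 rose by 0.28 ± 0.06. Neither Ifnar2 (-0.26) nor Ptpn2 (0.30) passed without set 1. In the orientations alone, Ifnar2 passed in neither and Ptpn2 did not in Cy5 (0.18).

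Among DNA-binding partners and cofactors, 4 of 15 genes rose and 0 fell, with a median of 0.11. The AP-1 subunit gene Jun rose by 0.74 ± 0.07, the NF-kappaB subunit gene Rela by 0.63 ± 0.21, the repressor gene Bcl6 by 0.55 ± 0.13 and the AP-1 subunit gene Jund by 0.46 ± 0.10. In Cy3 alone, Rela (0.50) and Jund (0.29) did not pass. Spi1, which encodes PU.1, averaged 0.19 ± 0.12 and did not pass (limma, adjusted p = 0.0839), but passed without set 2 (0.25), in Cy5 alone (0.25) and with the set number as a block (adjusted p = 0.0421). Among negative regulators of the factors, 3 of 11 genes rose and 1 fell, with a median of 0.073. The phosphatase gene Dusp1 rose by 1.82 ± 0.23, the ubiquitin editor gene Tnfaip3 by 1.70 ± 0.28 and its partner Tnip1 by 0.92 ± 0.09. Tnip1 passed at 0.46 with zeros kept as ratios, as its other probe was listed at 0 on all arrays. The deubiquitinase gene Otud5 averaged 0.32 ± 0.25, lay above 0 on 6 of 6 arrays and did not pass (limma, adjusted p = 0.0753). Otud5 passed without set 2 (0.40) and in the 3 fits of 6 single arrays (adjusted p from 0.0233 to 0.0445), and it averaged 0.18 without set 3. Trim21, a ubiquitin ligase gene that acts on Irf proteins, fell by 0.30 ± 0.07 (chosen for mention with its value known). Trim21 did not pass without set 1 (-0.29) or in Cy5 alone (-0.17).

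In the list of interferon response and target genes, 8 of 24 rose and 2 fell, with a median of 0.069. The chemokine genes Cxcl10 and Ccl5 rose by 3.00 ± 0.24 and 0.86 ± 0.13, and the antiviral gene Rsad2 rose by 0.74 ± 0.13. Ifit3 averaged 1.41 ± 0.23 over 1 probe at 2.90 and another at -0.077 that did not pass. With incomplete probes included, Ccl5 averaged 0.57 and did not pass (limma, adjusted p = 0.0675). Of genes described as controlled by Irf1 or Irf8, 6 of 25 rose and 2 fell, with a median of -0.011. The cyclooxygenase gene Ptgs2 rose by 1.16 ± 0.29, the NADPH oxidase gene Cybb by 0.65 ± 0.16, the transcription factor gene Cebpb by 0.45 ± 0.15 and the Ras regulator gene Nf1 by 0.37 ± 0.12. Cebpb did not pass without set 1 (0.41), nor did Nf1 in Cy3 alone (0.27). The interleukin 12 subunit gene Il12a, named after its values were seen, is counted among the rises at 0.35 but averaged -0.46 in Cy5 and 1.16 in Cy3. The 6 antigen processing genes of the list, also named after their values were seen, did not pass. Psmb8, Psmb9, Psmb10 and Tap1 lay between -0.10 and -0.053, B2m at 0.030 and Tapbp at 0.36 ± 0.29.

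**Figure D5:**
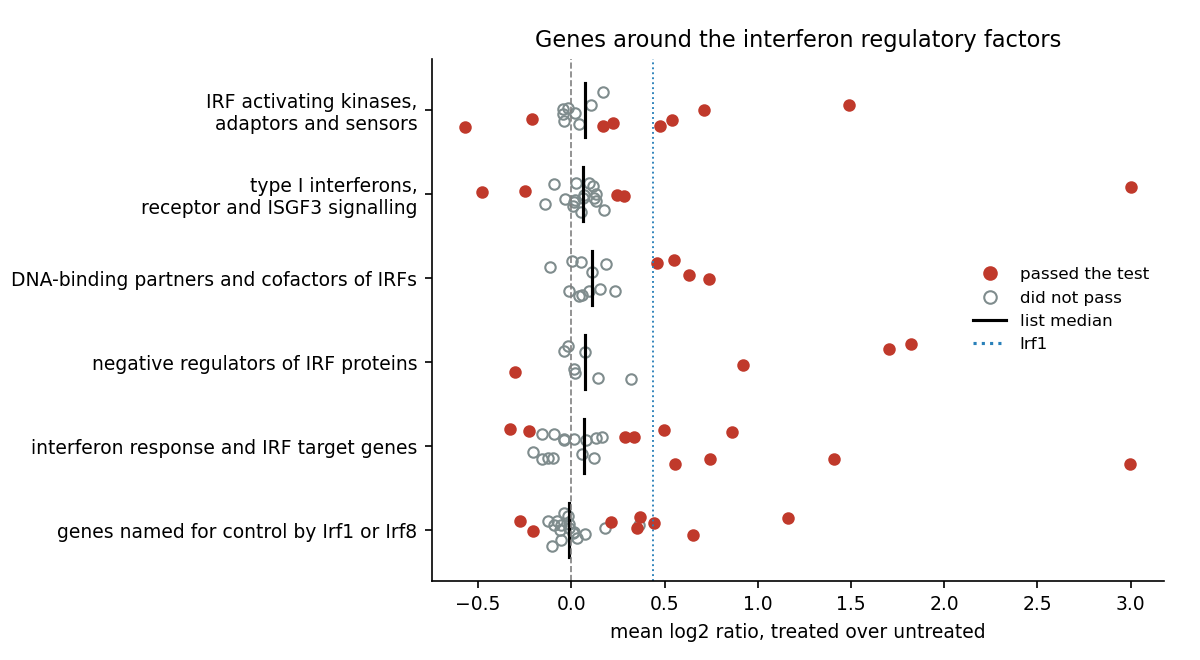
Mean log2 ratio of treated over untreated RNA for every tested gene of the 6 lists, red where the test was passed and open where it was not; black bars are list medians and the dotted line is Irf1. The medians lie between -0.011 and 0.11, while Ifnb1 and Cxcl10 reach 3.00.

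The genes whose ratios were most like those of Irf1 were sought by the root mean square difference over the 6 arrays among 8330 genes. They were Idi1, an enzyme gene of sterol synthesis (difference 0.058, mean 0.42 ± 0.05), Clk4, a splicing kinase gene (difference 0.060, mean 0.40 ± 0.06), and the class I histocompatibility gene H2-Q7 (difference 0.069, mean 0.42 ± 0.03). All 3 passed the test. Class I genes are near-identical to each other, so the H2-Q7 probe may read its relatives as well.

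Marker genes of the line and of other cells were measured on the same arrays. Of the 7 macrophage markers tested, Adgre1 rose (0.55 ± 0.11) and the others did not pass. Of the 7 lymphocyte markers, Cd4 (0.47 ± 0.21) and Cd79a (0.20 ± 0.06) rose, and of the 2 fibroblast and epithelial markers 0 passed. Other Cd4 probes, with ratios on only 2 and 3 arrays, averaged 0.028 and -0.086. Cd79a lay above 0 on 5 of 6 arrays. The part of these markers in the results above was not tested.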

How the data were processed

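The authors deposited 1 log2 ratio of both channels per probe and array, for 16281 probes on 6 arrays. Base 2 follows from the values, since at least 99.7% of those other than 0 are 6-digit log10 values divided by log10 of 2. The scanner, background correction and normalization are not given in the sources used here. Array medians lay between 0.0043 and 0.016, so the arrays were centred, by unknown means. Arrays whose treated RNA carried Cy3 had their sign turned. An exact 0, 8.99% to 23.9% of an array, was taken as missing.

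Probes with 1 symbol and 6 ratios (9968) were averaged by symbol to 8331 genes. Of 13738 probes with 1 symbol, 13694 were found by gene identifier in a RefSeq table of GRCm38.p6, which changed 0 symbols. The probes' build is not named, so probe positions are not given. Set averages (n = 3) were tested against 0 with limma 3.58.1 in R 4.3.3 (lmFit and eBayes, two-sided, 2 residual and 4.08 prior degrees of freedom). Intervals are limma's, at 95%. The script was tested on simulated data. Arrays that share a number correlated at 0.0056, -0.26 and -0.064 after removal of orientation means, so the numbers did not pair them, and p-values from their averages may be too small.

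The members, lists and tests were chosen with earlier results of these data known. Named were all members, 9 fixed genes where measured, the 4 genes of largest absolute ratio in each list and the 3 genes nearest to Irf1. Genes chosen outside this rule are marked where they appear.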

Additional observations from a re-analysis of the deposited data

How the results depend on the processing

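Irf1 passed the test under all 14 alternatives run, at 0.39 to 0.48 (adjusted p from 7.06e-05 to 0.0280), and was the only member called in each. The block made by the replicate number gave Irf1 the same mean (0.44) and called 1525 genes. That fit estimated a correlation of -0.34 within a set number, and a negative value makes a mean look more precise. Its adjusted p-values from limma (7.06e-05 for Irf1, 0.0421 for Spi1 and 0.0233 for Otud5) may therefore be too small. No other member passed under any alternative. Over all 8 members, Irf1 included, signs turned in 8 of 112 values, none of them a value of Irf1. In Cy5 alone, Irf4 was 0.0090 and Irf5 -0.038. In Cy3 alone, Irf2 was -0.081, Irf3 -0.0051 and Irf7 -0.070. Leaving out 1 set at a time gave -0.052 to 0.063 for Irf2, -0.0035 to 0.063 for Irf3 and -0.017 to 0.020 for Irf7. Ifit3 was -0.077 by its weaker probe, and Il12a was -0.46 in Cy5 alone and lost its call without set 1 (0.35). Over all genes, calls fell to 522 (286 up, 236 down) with zeros kept, 655 (367 and 288) with incomplete probes and 649 (383 and 266) in Cy3 alone. Without 1 set they ranged from 499 to 832 (296 to 471 up, 203 to 387 down), lowest without set 1. List calls were 19 with zeros kept and 25 to 35 without 1 set. Stat2, Rela, Ifih1, Tbk1, Ifnar2, Ccl5, Cebpb, Nf1, Trim21 and Il12a lost their calls with zeros kept. The causes were not tested, though fewer sets leave fewer degrees of freedom. With Cy3 as numerator every sign turns. Signal over background is unknown.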
